A study of Homo sapiens with 8 samples.

Results

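The long non-coding RNAs (lncRNAs) that were well expressed in human intestinal epithelial cells derived from stem cells (hIECs) are described here across 4 conditions of cytokine and particulate matter exposure. They were selected on their measured level: every gene of type lncRNA with a mean of at least 5 FPKM (fragments scaled to the length of the transcript and the total of the library) over the 8 libraries was taken, and H19, MEG3 and CYP1B1-AS1 were left out. This gave 151 lncRNAs among 60558 genes. The files held 16828 lncRNA genes, of which 12823 were at 0 in all 8 libraries and 4005 were above 0 in at least 1. H19 was the only left-out gene that reached the minimum. Just inside it lay SNHG9 with a mean of 5.10 FPKM, OTUD6B-AS1 with 5.09 and EPB41L4A-AS1 with 5.04, and just outside lay CASC9 with 4.97, AC004816.1 with 4.91 and THUMPD3-AS1 with 4.87.

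LncRNAs are transcripts that are spliced and often polyadenylated like messenger RNAs but are not known to encode a protein of ordinary length. Some act as RNAs in the nucleus, such as NEAT1, the scaffold of paraspeckles, and MALAT1, a component of nuclear speckles. Others are mainly carriers: small nucleolar RNAs (snoRNAs), which guide the chemical modification of ribosomal RNA, and microRNAs, which repress messenger RNAs through a short seed, are cut out of longer host transcripts. Many others are transcribed opposite to or away from a protein-coding gene. Where exons on opposite strands overlap, reads of an unstranded library cannot be assigned to either strand.

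The hIECs were 2-dimensional cultures made from the embryonic stem cell line H9, which is human and established, and each condition had 2 libraries. Normal hIECs received neither agent, and inflamed hIECs received interferon gamma (IFNγ) and tumor necrosis factor alpha (TNFα) at 50 ng/ml each for 10 days. The particulate matter of the size class PM10 was added at 100 µg/ml for the last 7 days to normal hIECs in the second group and to inflamed hIECs in the fourth. All groups therefore come from 1 line, and the labels do not say whether the 2 libraries of a group were separate cultures, so p-values measure only the spread between these libraries, which may be technical. RNA was poly(A)-selected and read without strand. Of 13 intestinal epithelial markers, 10 were under 1 FPKM in every library and 8, among them VIL1, CDX2 and MUC2, were listed at 0, while KRT8, KRT18 and LGR5 were present. All 9 mesenchymal markers were above 1 FPKM in every library, with summed levels of 3694 to 4457 FPKM, so the labelled cell type was not borne out by its defining markers, and the lncRNA levels below are those of cells with this expression profile.

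Of the 151 lncRNAs, 14 held a microRNA gene on the same strand, and mature microRNAs of 8 of them are shown so that their seeds (bases 2 to 8, in capitals) can be compared. The sequences are from RefSeq (GRCh38.p14). DNM3OS lies on the minus strand at chr1:172138397-172144840, opposite to DNM3. MIR100HG spans chr11:122028325-122556721, MIR503HG chrX:134543119-134546642, MIR22HG chr17:1711447-1717174, CARMN chr5:149406689-149432835 and DIO3OS chr14:101552221-101620355 (GRCh38, GENCODE release 44).
DNM3OS, hsa-miR-199a-5p: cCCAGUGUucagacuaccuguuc
DNM3OS, hsa-miR-199a-3p: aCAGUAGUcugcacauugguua
DNM3OS, hsa-miR-214-3p: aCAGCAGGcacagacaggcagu
MIR100HG, hsa-miR-100-5p: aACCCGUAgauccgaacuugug
MIR100HG, hsa-let-7a-5p: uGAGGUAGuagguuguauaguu
MIR100HG, hsa-miR-125b-5p: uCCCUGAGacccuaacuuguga
MIR503HG, hsa-miR-503-5p: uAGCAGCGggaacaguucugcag
MIR22HG, hsa-miR-22-3p: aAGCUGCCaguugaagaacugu
CARMN, hsa-miR-143-3p: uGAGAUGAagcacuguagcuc
CARMN, hsa-miR-145-5p: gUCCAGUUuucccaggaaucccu
DIO3OS, hsa-miR-1247-5p: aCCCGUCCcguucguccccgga
CYTOR and MIR4435-2HG, hsa-miR-4435: aUGGCCAGagcucacacagagg
Among the 151 lncRNAs each seed shown was found in a single host, except that of miR-4435, whose gene lies in both CYTOR and MIR4435-2HG. Hosts outside the 151 were not searched for the seeds. Mature microRNAs are too short for these libraries, so the values below are those of the host transcripts.

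The levels of the 151 lncRNAs were skewed. Their mean FPKM had a median of 8.75 and ranged from 5.04 to 324, with 8 at 100 FPKM or more and 87 under 10. In every group 93 of them were at 5 FPKM or more, and 58 were under 5 in at least 1 group. Together they made up 1.20% and 1.41% of all FPKM in the normal libraries, 0.830% and 0.769% in normal hIECs with PM10, 0.730% and 0.776% in inflamed hIECs and 0.656% and 0.659% in inflamed hIECs with PM10.

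Most of that spread came from 4 genes with clone names, FP236383.3, FP236383.2, FP671120.4 and FP671120.5, each 923 bases long and in the ribosomal DNA of chromosome 21, on the minus strand. FP236383.3, at chr21:8437629-8438551, had the highest mean of all 151. The first 3 of them shared all of their 100-base windows with each other and the last shared 75.85%, so reads cannot be assigned to a copy and the 4 count as 1 observation. Their summed level was 2202 and 3675 FPKM in the normal libraries, 943 and 656 with PM10, 544 and 585 in inflamed hIECs and 410 and 402 in inflamed hIECs with PM10. Both normal libraries were above all others, and the normal libraries also differed most from each other. The genes of ribosomal RNA type moved with them, with sums of 133 and 148, 57.2 and 53, 31.0 and 29.6, and 27.1 and 25.2 FPKM in the same order, and the part of ribosomal RNA carried through selection in these values was not tested. Without the 4 genes the other 147 lncRNAs took 0.555% to 0.686% of all FPKM.

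Next in level came AC011603.2, named TUBA1B-AS1 in GENCODE 44, SNHG29, AC083967.1, AC093484.3, GAS5 and DNM3OS. AC011603.2 (mean 259 FPKM) shares 34.0% of its exon bases with TUBA1B, an alpha tubulin gene at 480 to 622 FPKM by group mean on the opposite strand. AC093484.3 (mean 137 FPKM) lies wholly under UBB, a ubiquitin gene, and differed in none of the comparisons. Without strand, their reads cannot be told from those of the coding genes. AC011603.2 had 222 and 245 FPKM in normal hIECs, 196 and 201 with PM10, 261 and 363 in inflamed hIECs and 275 and 308 with both, and its cytokine change of 0.40 ± 0.14 (adjusted p = 0.0445) was not called under 11 of 19 other settings.

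**Figure D1:**
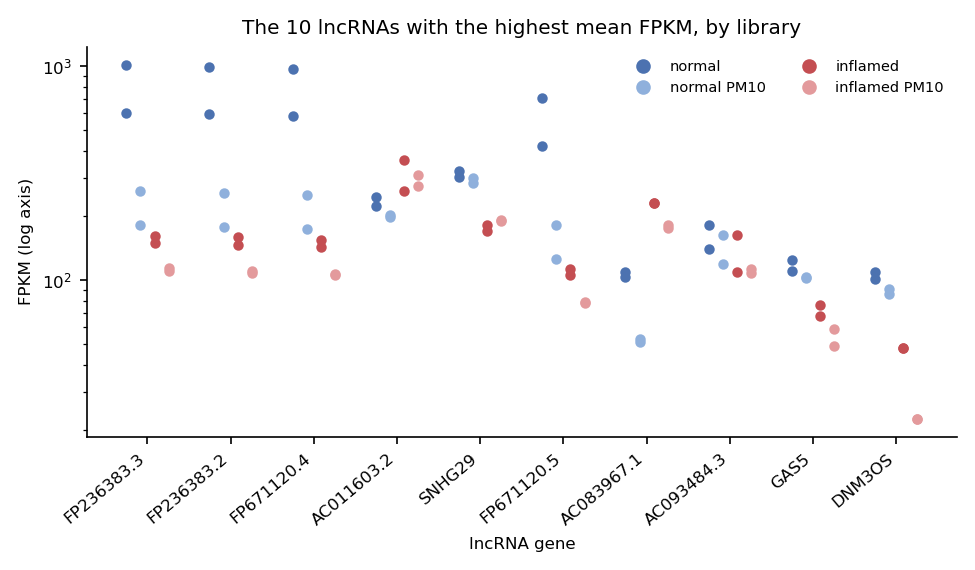
FPKM on a log axis for the 10 lncRNAs with the highest mean level, with 1 point for each of the 8 libraries, coloured by group. The 4 genes of the ribosomal DNA are highest in both normal libraries, AC083967.1 is higher in both groups of inflamed hIECs (175 to 229 FPKM) than in normal hIECs (51.2 to 109 FPKM), and SNHG29, GAS5 and DNM3OS are lower in inflamed hIECs.

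The comparisons asked which lncRNAs differed with the cytokines, with PM10, and whether the PM10 difference depended on the cytokines. Each was fitted with limma on log2(FPKM + 1) across 14206 genes, and a gene was called at a Benjamini-Hochberg adjusted p under 0.05; a log2 change is on that scale, which understates the change of low genes. All 151 lncRNAs entered the fit. A lower level can come from fewer cells of a type or from less RNA per cell, which bulk libraries cannot tell apart.

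In all 5 comparisons more of the lncRNAs were called lower than higher. Between inflamed and normal hIECs, 30 were called higher and 72 lower, which is 67.5% of the 151, beside 56.2% of all genes tested (25.9% higher and 30.3% lower). With PM10 in both groups, the cytokine comparison called 24 higher and 88 lower, or 74.2%, beside 65.4% of all genes (25.8% higher and 39.6% lower). PM10 in inflamed hIECs called 3 higher and 48 lower, or 33.8%, beside 15.2% (6.22% higher and 9.02% lower). PM10 in normal hIECs called 6 higher and 15 lower, or 13.9%, beside 9.23% (5.51% higher and 3.72% lower). The interaction, which tests whether the PM10 change differed between inflamed and normal hIECs, called 4 higher and 23 lower, or 17.9%, beside 6.6% (2.11% higher and 4.48% lower). Among 7703 protein-coding genes at a mean of at least 5 FPKM, the shares called in the order PM10 in normal, cytokines without PM10, PM10 in inflamed, cytokines with PM10 and interaction were 12.6%, 60%, 17.5%, 68.3% and 7.88%. A minimum on the mean lets in lncRNAs through the group where they are high, so these shares partly follow from the selection. Of the 93 lncRNAs at 5 FPKM or more in every group, 61.3% were called with the cytokines without PM10 (36.6% lower), 67.7% with PM10 (49.5% lower), 31.2% for PM10 in inflamed hIECs (28% lower), 17.2% for PM10 in normal hIECs (12.9% lower) and 16.1% for the interaction (12.9% lower). Of the 58 under 5 FPKM in some group, 65.5% were lower with the cytokines without PM10. The median log2 change of the lncRNAs was −0.05, −0.29, −0.24, −0.48 and −0.12 in that order, and that of all genes was 0.06, −0.03, −0.01, −0.11 and −0.06.

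**Figure D2:**
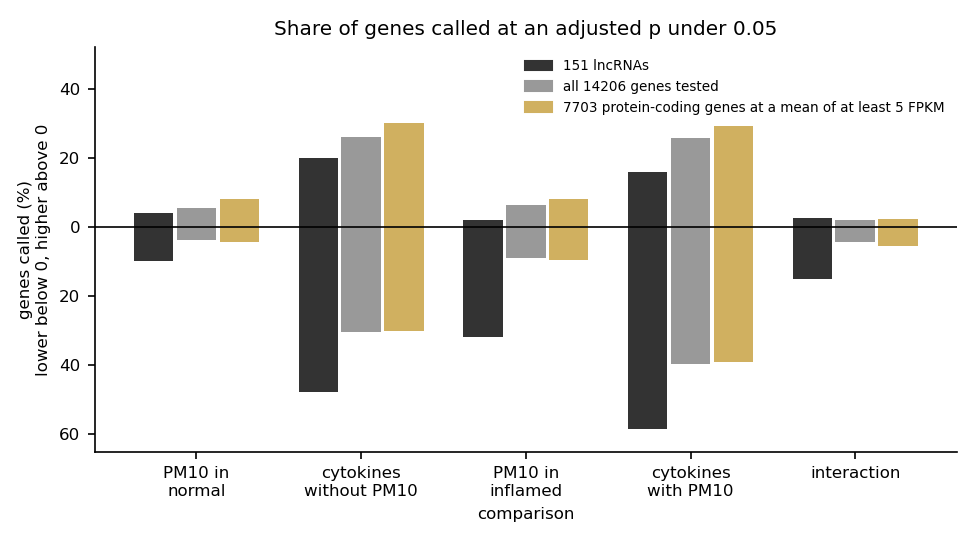
Percent of genes called higher (above 0) and lower (below 0) in each of the 5 comparisons, for the 151 lncRNAs, all 14206 genes tested and 7703 protein-coding genes at a mean of at least 5 FPKM. The bars of lncRNAs called lower stand at 47.7% beside 30.3% of all genes for the cytokines and 31.8% beside 9.02% for PM10 in inflamed hIECs, and rest in part on lncRNAs that passed the minimum through 1 high group.

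The lncRNA with the largest rise under the cytokines was HCP5, a gene of the major histocompatibility complex class I region at chr6:31463170-31478936. HCP5 had 0.616 and 0.622 FPKM in normal hIECs, 1.34 and 0.721 with PM10, 16.6 and 16 in inflamed hIECs and 20.2 and 19.3 in inflamed hIECs with PM10. The inflamed libraries did not overlap the normal ones, and the log2 change was 3.42 ± 0.13 (SE) without PM10 (adjusted p = 9.85e-07) and 3.37 ± 0.13 with it (adjusted p = 7.91e-07). It was the only 1 of 18 listed cytokine-response lncRNAs to reach a mean of 5 FPKM. Of the 8 in that list that were tested, 5 rose and 1 fell in each cytokine comparison, or 62.5% and 12.5%. Over all genes 25.9% were called higher and 30.3% lower without PM10, and 25.8% and 39.6% with it.

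MMP25-AS1, opposite to the membrane metalloproteinase gene MMP25 at chr16:3037400-3059370, had 3.06 and 2.96 FPKM in normal hIECs, 3.44 and 3.13 with PM10, 12 and 13.8 in inflamed hIECs and 14.1 and 12.9 with both. It rose by 1.79 ± 0.08 on the log2 scale (adjusted p = 2.84e-06) and, with PM10, by 1.76 ± 0.08 (adjusted p = 2.37e-06). MMP25 itself, with which it shares 20.1% of its exon bases, changed by 0.99. AF117829.1, named RIPK2-DT in GENCODE 44 and transcribed away from RIPK2, a kinase of the NOD receptor pathway, had 2.17 and 3.43 FPKM in normal hIECs, 2.27 and 2.99 with PM10, 11.6 and 11.4 in inflamed hIECs and 8.0 and 7.99 with both. It rose by 1.74 ± 0.16 (adjusted p = 7.71e-05), and RIPK2, with which it shares 0.04% of its exon bases, by 1.6 (adjusted p = 9.55e-07).

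MIR4435-2HG and CYTOR are copies of a duplicated segment on chromosome 2, at chr2:111006015-111523376 and chr2:87454781-87636740. MIR4435-2HG had 19.3 and 19.2 FPKM in normal hIECs, 14.9 and 14.1 with PM10, 45.0 and 44.8 in inflamed hIECs and 52.1 and 51.7 with both. CYTOR had 26.6 and 32.3, 24.4 and 23.2, 63.2 and 65.5, and 68.7 and 65.5 FPKM in the same order. The inflamed libraries of both genes lay above all normal ones, with log2 changes of 1.18 ± 0.05 and 1.11 ± 0.09 without PM10 (adjusted p = 1.21e-06 and 3.86e-05) and 1.77 ± 0.05 and 1.46 ± 0.09 with it (adjusted p = 1.34e-07 and 6.73e-06). CYTOR shares 36.8% of its 100-base transcript windows with MIR4435-2HG, so part of their reads cannot be assigned and their rise is not 2 independent observations. NEAT1 and AC083967.1 also rose and are described with PM10 below.

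Start regions of 4 of these risers are shown, from 250 bases before to 50 after the RefSeq start (GRCh38.p14), because the pair on chromosome 2 can only be understood from its sequence and because motifs of cytokine-driven factors were searched in them. Capitals mark matches on either strand to TTCNNNGAA, the palindrome of STAT dimers, to GAAANNGAA, which is part of the interferon-stimulated response element, and to GGGNNTTCC, which is part of the NF-κB motif. They lie at chr6:31462930-31463229 (plus strand), chr16:3059321-3059620 (minus), chr2:87455177-87455476 (plus) and chr2:111495112-111495411 (minus).
HCP5: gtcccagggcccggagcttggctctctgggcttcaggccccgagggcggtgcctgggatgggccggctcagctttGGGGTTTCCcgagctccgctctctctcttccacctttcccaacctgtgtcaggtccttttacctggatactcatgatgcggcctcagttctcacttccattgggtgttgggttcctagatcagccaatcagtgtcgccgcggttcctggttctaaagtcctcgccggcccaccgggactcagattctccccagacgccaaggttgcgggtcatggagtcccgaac
MMP25-AS1: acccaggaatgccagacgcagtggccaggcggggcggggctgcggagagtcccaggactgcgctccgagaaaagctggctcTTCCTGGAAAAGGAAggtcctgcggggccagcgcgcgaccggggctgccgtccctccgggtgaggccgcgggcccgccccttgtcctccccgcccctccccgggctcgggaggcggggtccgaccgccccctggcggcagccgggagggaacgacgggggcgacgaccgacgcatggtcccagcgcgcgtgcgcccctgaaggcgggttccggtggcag
CYTOR: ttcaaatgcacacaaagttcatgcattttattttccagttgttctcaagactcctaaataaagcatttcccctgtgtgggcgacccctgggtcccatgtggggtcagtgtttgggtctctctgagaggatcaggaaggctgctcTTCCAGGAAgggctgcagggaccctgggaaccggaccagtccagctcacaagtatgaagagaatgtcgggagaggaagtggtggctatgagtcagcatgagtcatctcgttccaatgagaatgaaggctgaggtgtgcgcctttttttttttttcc
MIR4435-2HG: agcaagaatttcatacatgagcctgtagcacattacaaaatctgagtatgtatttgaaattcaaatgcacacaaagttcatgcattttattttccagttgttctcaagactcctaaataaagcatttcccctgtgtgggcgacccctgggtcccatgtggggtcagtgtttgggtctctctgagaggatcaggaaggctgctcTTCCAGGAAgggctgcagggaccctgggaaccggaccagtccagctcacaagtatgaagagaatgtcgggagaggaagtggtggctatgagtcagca
The CYTOR and MIR4435-2HG windows were the same at 241 of 241 positions once shifted by 59 bases, TTCNNNGAA match included. In MMP25-AS1 the first 2 motifs overlap. Over the 27305 start regions in the table, TTCNNNGAA was found in 7.88%, GAAANNGAA in 8.29% and GGGNNTTCC in 6.6%. Of the 151 lncRNAs 82 had a start region, and 6, 9 and 5 of them held the motifs. Among the 17 of these called higher by the cytokines the counts were 3, 2 and 2, among the 40 called lower 2, 4 and 2, and among the other 25 they were 1, 3 and 1. The 3 include the identical match of CYTOR and MIR4435-2HG and so are not 3 separate sites. The xenobiotic response core GCGTG was found in 39 of the 82 beside 36.33% of all start regions, and the antioxidant response core TGACNNNGC in 9 beside 13.56%.

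**Figure D3:**
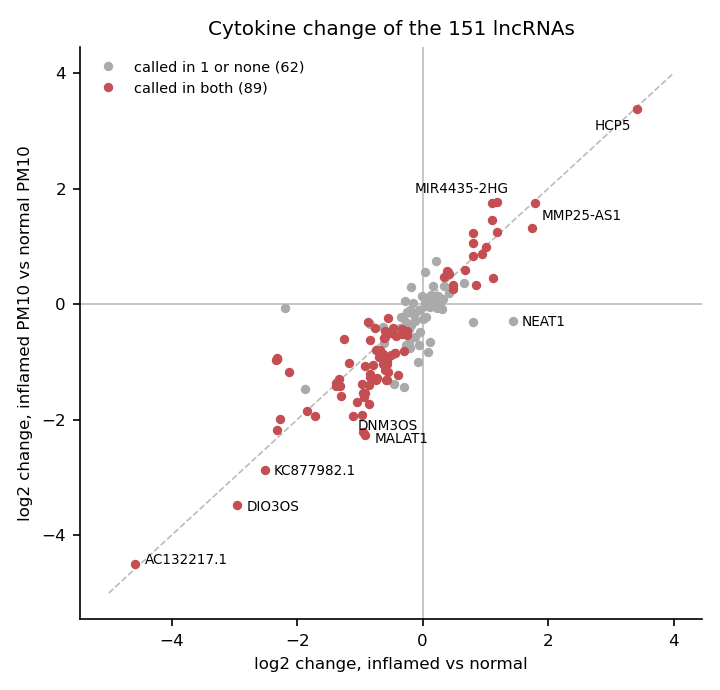
Log2 change with the cytokines for each of the 151 lncRNAs without PM10 (x axis) and with PM10 (y axis), with the 89 called in both comparisons in red and the other 62 in grey, and equal changes on the dashed line. HCP5 stands at 3.42 and 3.37, DIO3OS at −2.96 and −3.48, and NEAT1 leaves the line at 1.43 and −0.29.

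The cytokine comparisons with and without PM10 share no library. Their log2 changes had the same sign for 136 of the 151 lncRNAs, and of the 89 called in both, 21 were higher in both and 68 lower in both, with none in opposite directions. Over all genes tested, 12163 of 14206 had the same sign.

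The largest fall among lncRNAs above 0 in every library was that of DIO3OS, a gene of the imprinted DLK1-DIO3 region opposite to DIO3, which encodes the deiodinase that inactivates thyroid hormone. DIO3OS had 18.4 and 24.7 FPKM in normal hIECs, 18.2 and 19.6 with PM10, 1.99 and 1.76 in inflamed hIECs and 0.704 and 0.858 with both. The groups with and without cytokines did not overlap, and the log2 change was −2.96 ± 0.13 (adjusted p = 1.98e-06) without PM10 and −3.48 ± 0.13 (adjusted p = 6.36e-07) with it. DIO3, which shares 1.65% of the exon bases of DIO3OS, changed by −3.51. KC877982.1, a short transcript at chrX:151182386-151182855, had 11.4 and 15.9, 10.6 and 10.2, 1.87 and 1.22, and 0.588 and 0.535 FPKM in the same order of groups, a change of −2.52 ± 0.17 (adjusted p = 1.56e-05) without PM10.

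AC132217.1 was called lower in both cytokine comparisons and was listed at 0 in all 4 inflamed libraries, so no fold is given. It had 17.3 and 30.3 FPKM in normal hIECs and 11.2 and 40.2 with PM10, so replicates differed widely. All of its exon bases lie in IGF2, an imprinted growth factor gene, on the same strand, and IGF2 fell from a group mean of 192 FPKM in normal to 8.58 in inflamed hIECs, so reads of the pair cannot be told apart. LINC00632, the X-linked locus from which the circular RNA of CDR1 antisense is made (the circle itself was not measured), had 15.6 and 13.1, 7.36 and 6.58, 2.27 and 2.69, and 2.62 and 2.45 FPKM and changed by −2.14 ± 0.10 (adjusted p = 3.63e-06).

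Of the lncRNAs within HOX clusters, the 4 in the list of HOX lncRNAs fell in both cytokine comparisons, and LINC02086, which the list did not hold, rose. HOTAIRM1 and HOXA-AS2 belong to the HOXA cluster, HOTAIR to HOXC and HAGLR to HOXD, clusters that encode transcription factors of body axis patterning. HOXA-AS2 had 10.8 and 10.6 FPKM in normal hIECs, 8.52 and 8.51 with PM10, 4.71 and 4.63 in inflamed hIECs and 1.69 and 2.24 with both. HAGLR had 11.9 and 11.7, 13.3 and 12.5, 5.46 and 5.71, and 3.01 and 2.41 FPKM. HOTAIR had 17.9 and 15.3, 16.1 and 16.4, 10.8 and 11.9, and 8.62 and 8.16 FPKM. In each of these genes both inflamed groups lay below both normal groups. HOTAIRM1, with 13.5 and 15.9, 18.1 and 17.5, 9.21 and 9.64, and 6.48 and 6.60 FPKM, did the same. The log2 changes without PM10 were −1.05 ± 0.09 for HOXA-AS2, −0.96 ± 0.09 for HAGLR, −0.59 ± 0.08 for HOTAIRM1 and −0.51 ± 0.08 for HOTAIR, with adjusted p from 6.19e-05 to 0.00172. With PM10 they were −1.69 ± 0.09, −1.91 ± 0.09, −1.32 ± 0.08 and −0.88 ± 0.08. Of the 15 HOX cluster lncRNAs in the list that were tested at any level, 9 fell without PM10, 11 fell with it and none rose. The shares called lower were 60% and 73.3%, beside 30.3% and 39.6% of all genes. LINC02086, between HOXB9 and HOXB13 at chr17:48646923-48707346 and named after its values were seen, had 14.4 and 14.5 FPKM in normal hIECs, 15.1 and 14.8 with PM10, 29.2 and 31.3 in inflamed hIECs and 29.5 and 31.9 with both. It rose by 1.01 ± 0.06 without PM10 (adjusted p = 9.14e-06) and by 0.99 ± 0.06 with it (adjusted p = 6.89e-06). HOXD1, head to head with HAGLR, changed by −1.65, and HOXA3, opposite to HOXA-AS2, by −0.48, both called lower without PM10.

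Of the 17 snoRNA host genes among the lncRNAs, 15 fell and none rose with the cytokines without PM10, and 16 fell and none rose with PM10, where 30.3% and 39.6% of all genes were called lower. The summed intestinal epithelial markers, mainly KRT8 and KRT18, went from 642 to 651 FPKM in normal to 351 to 356 in inflamed hIECs. The neuronal sum went from 196 to 206 to about 116 FPKM. Of these markers LGR5 went the other way, from a group mean of 2.32 to 5.47 FPKM, and MAP2 had 4.50 and 4.56 FPKM. The part of these markers in the falls of the host genes was not tested. Mitochondrial genes took 24.2% of all FPKM in normal replicate 2 and 15.5% to 20.4% in the other libraries. The median log2 change of the list was −0.69 and −0.60, beside −0.03 and −0.11 over all genes. SNHG29, the highest, had 304 and 323 FPKM in normal hIECs, 299 and 284 with PM10, 181 and 169 in inflamed hIECs and 188 and 191 with both. GAS5, whose exons accumulate when growth stops, had 123 and 111, 102 and 103, 76.2 and 67.7, and 48.9 and 59.0 FPKM. ZFAS1 had 94.2 and 76.5, 66.7 and 64.3, 46.9 and 45.2, and 55.1 and 50.3 FPKM. In these 3 genes every inflamed library lay below every normal one. The log2 changes without PM10 were −0.84 ± 0.05 for SNHG29 (adjusted p = 1.55e-05), −0.69 ± 0.10 for GAS5 (adjusted p = 0.000797) and −0.87 ± 0.10 for ZFAS1 (adjusted p = 0.000202). SNHG6 changed by −0.51 ± 0.08 and SNHG5 by −0.33 ± 0.09, the latter with an adjusted p of 0.0857 at the highest when a library was left out, normal replicate 1 or inflamed replicate 1. DANCR, named after its values were seen, changed most within the list, with 39.9 and 41.9, 35.1 and 35.1, 15.5 and 14.8, and 12.4 and 12.6 FPKM and a log2 change of −1.37 ± 0.05 (adjusted p = 8.86e-07). SNHG3 at −0.04 and SNHG12 at −0.19 were the hosts not called without PM10, and SNHG8 at −0.34 the host not called with it. Over all 28 hosts of the list that were tested at any level, 22 fell and 1 rose without PM10.

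**Figure D4:**
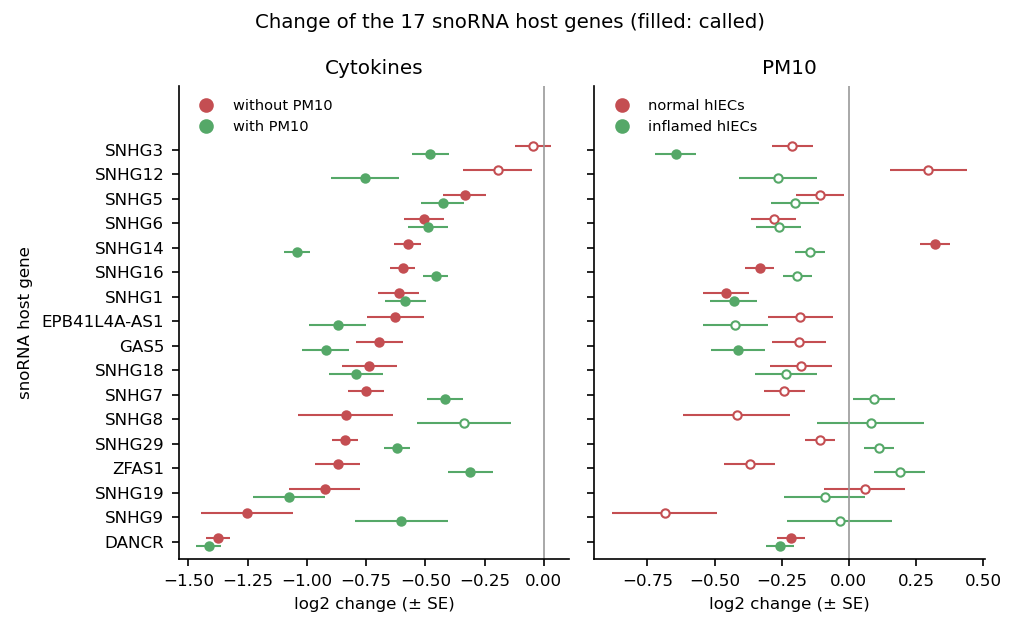
Log2 change with its standard error for the 17 snoRNA host genes, on the left with the cytokines without and with PM10 and on the right with PM10 in normal and inflamed hIECs, with filled points for called changes. All points on the left lie below 0, and on the right 4 of 17 are filled in each comparison.

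Host genes of this kind are known for starts of the terminal oligopyrimidine type, a C followed by a run of C and T as in ribosomal protein genes, and since they moved together their first 30 bases are shown for SNHG29, ZFAS1 and SNHG5, which are among the highest hosts, and for 2 with longer runs. The run is in capitals where the RefSeq start is a C.
SNHG29, chr17:16438987-16439016: ggattgggatattccgactccttaagggcc
ZFAS1, chr20:49278642-49278671: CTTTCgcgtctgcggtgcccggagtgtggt
SNHG5, chr6:85678704-85678733: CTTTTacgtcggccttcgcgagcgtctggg
SNHG12, chr1:28581844-28581873: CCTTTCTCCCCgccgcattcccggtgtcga
SNHG19, chr16:2155329-2155358: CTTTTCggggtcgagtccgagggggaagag
A C and a run of at least 5 was found in 5 of the 15 hosts with a start region, beside 4.04% of all start regions. Of these 5, ZFAS1, SNHG5, SNHG19 and SNHG18, which has a run of 21, were called lower with the cytokines without PM10. SNHG12, with a run of 11, was called lower only in the cytokine comparison with PM10. Hosts with no such run at their RefSeq start, such as SNHG29, GAS5 and DANCR, fell as well. A link between the start and the change was not tested.

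PM10 in normal hIECs called 6 lncRNAs higher and 15 lower, the latter with the 4 genes of the ribosomal DNA among them. The largest called fall outside the ribosomal DNA was that of AC083967.1, a lncRNA of chromosome 8 with no shared exon bases and no shared windows. AC083967.1 had 103 and 109 FPKM in normal hIECs, 53 and 51.2 with PM10, 229 and 228 in inflamed hIECs and 175 and 180.0 with both. It fell by 1.01 ± 0.05 with PM10 in normal hIECs (adjusted p = 0.000163) and by 0.37 ± 0.05 in inflamed hIECs (adjusted p = 0.00354), and rose by 1.11 ± 0.05 with the cytokines (adjusted p = 1.74e-06). Its 4 groups did not overlap. LINC00632 fell by 0.94 ± 0.10 (adjusted p = 0.0042) and MIR4435-2HG by 0.39 ± 0.05 (adjusted p = 0.00576). The 4 genes of the ribosomal DNA changed by −1.85 ± 0.24 each (adjusted p from 0.00689 to 0.00741). Of the 7 lncRNAs called lower with PM10 in both backgrounds, MIR100HG had 41.9 and 38.5, 29.7 and 29.6, 26.1 and 23.5, and 17.4 and 15.8 FPKM.

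The 6 called higher with PM10 in normal hIECs were NEAT1, AL139393.3, SLC9A3-AS1, AL162388.2, SNHG14 and NORAD. AL139393.3, named MAP3K4-AS1 in GENCODE 44, had 5.69 and 4.29 FPKM in normal hIECs, 10.3 and 9.61 with PM10, 3.65 and 3.43 in inflamed hIECs and 3.53 and 3.90 with both, a change of 0.88 ± 0.11 (adjusted p = 0.00712). AL162388.2, on chromosome 9 and head to head with LINGO2, was the only lncRNA called higher with PM10 in both backgrounds, with 6.31 and 5.73, 8.57 and 9.04, 15.5 and 14.2, and 22.3 and 22.0 FPKM. It changed by 0.48 ± 0.07 (adjusted p = 0.00943) and 0.55 ± 0.07 (adjusted p = 0.00313), and by 1.18 ± 0.07 with the cytokines (adjusted p = 8.7e-06). NORAD, a cytoplasmic RNA that binds Pumilio proteins, had 46.0 and 39.8, 54.4 and 52.1, 50.8 and 50.6, and 59.2 and 58.0 FPKM and changed by 0.31 ± 0.07 (adjusted p = 0.0382).

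These calls leaned on single libraries. The count of 21 became 8 without replicate 1 and 7 without replicate 2 of normal hIECs with PM10, 34 without replicate 1 of normal hIECs and 1 when only the 2 groups were fitted, and the 4 calls that held whichever library was left out were FP236383.2, FP671120.4, AC083967.1 and LINC00632. Of those 4, FP236383.2 and FP671120.4 lie in the ribosomal DNA and count as 1 observation. Their copies FP236383.3 and FP671120.5 did not hold in every such fit. After rescaling to the sum without mitochondrial genes, 9 were called higher and 14 lower.

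PM10 in inflamed hIECs called 48 lncRNAs lower and 3 higher. DNM3OS, the host of miR-199a and miR-214 that is known from mesenchymal cells, had 109 and 101 FPKM in normal hIECs, 90.6 and 86.1 with PM10, 47.9 and 48.2 in inflamed hIECs and 22.4 and 22.5 with both. Its groups did not overlap, and it fell by 1.06 ± 0.05 with PM10 in inflamed hIECs (adjusted p = 0.000123), by 0.25 ± 0.05 in normal hIECs (adjusted p = 0.0337) and by 1.11 ± 0.05 with the cytokines (adjusted p = 3.26e-06). MIR503HG had 17 and 22.0, 19.1 and 21.4, 15.5 and 15.9, and 6.89 and 6.86 FPKM. The last group lay below the other 3, and MIR503HG fell by 1.08 ± 0.11 with PM10 in inflamed hIECs (adjusted p = 0.00159), while its change of 0.06 ± 0.11 with PM10 in normal hIECs was not called (adjusted p = 0.758).

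MALAT1 had 31.0 and 36.5 FPKM in normal hIECs, 44.6 and 34.0 with PM10, 17.6 and 17 in inflamed hIECs and 7.47 and 7.23 with both. The first 2 groups overlapped and the other 2 lay below them and apart, with a log2 change of −1.13 ± 0.13 for PM10 in inflamed hIECs (adjusted p = 0.00203) and −0.92 ± 0.13 for the cytokines (adjusted p = 0.000624). Of its exon bases 77.8% are shared with TALAM1 on the opposite strand, and the reads of the pair cannot be told apart. BX321878.1, named LINC02814 in GENCODE 44, had 9.45 and 12.5, 15 and 11.6, 5.20 and 5.09, and 2.44 and 1.73 FPKM and changed by −1.0 ± 0.17 (adjusted p = 0.00959). The 4 listed HOX lncRNAs were lower as well, HOXA-AS2 by 0.94 ± 0.09 (adjusted p = 0.00127), HAGLR by 0.83 ± 0.09 (adjusted p = 0.00159), HOTAIRM1 by 0.47 ± 0.08 (adjusted p = 0.0097) and HOTAIR by 0.40 ± 0.08 (adjusted p = 0.0228), while LINC02086 of the HOXB cluster changed by 0.02 ± 0.06 (adjusted p = 0.84). Of the 17 snoRNA hosts 4 fell and none rose, or 23.5% lower, beside 31.8% of the 151 lncRNAs and 9.02% of all genes. GAS5 changed by −0.41 ± 0.10 (adjusted p = 0.0344). DIO3OS changed by −0.69 ± 0.13 (adjusted p = 0.0147).

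The 3 lncRNAs called higher were AL162388.2, MIR4435-2HG at 0.20 ± 0.05 (adjusted p = 0.0298) and AC117402.1, which had 12.2 and 10.0, 12 and 11.3, 12.8 and 13.1, and 20.5 and 19.9 FPKM and changed by 0.60 ± 0.09 (adjusted p = 0.00525). AC117402.1 is not in GENCODE 44, and no position is given for it.

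The count of 51 fell to 23, 23, 25 and 24 without replicate 1 or 2 of inflamed hIECs and replicate 1 or 2 of inflamed hIECs with PM10, and 18 calls held whichever library was left out, among them DNM3OS, MIR100HG, MALAT1, MIR503HG, HAGLR, HOXA-AS2, AC083967.1, AC117402.1 and AL162388.2. The summed level of the 9 mesenchymal markers was 4409 and 4457 FPKM in the inflamed libraries and 3734.5 and 3768 with PM10, while 2 of them had higher group means with PM10, LUM at 139.9 beside 97.6 FPKM and ACTA2 at 1045 beside 1015.5 FPKM. The sum also went from 4175 and 4219 in normal hIECs to 3694 and 3704 with PM10. The part of these markers in the result was not tested.

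PM10 changes in normal and in inflamed hIECs share no library. They had the same sign for 92 of the 151 lncRNAs, and 10 were called in both, 8 in the same direction and 2 in opposite directions. Those 2 were NEAT1 and MIR4435-2HG. NEAT1, at chr11:65422774-65445540, had 25.8 and 15.9 FPKM in normal hIECs, 42.8 and 41.2 with PM10, 56.9 and 56.2 in inflamed hIECs and 33.1 and 35.5 with both. It rose by 1.01 ± 0.18 with PM10 in normal hIECs (adjusted p = 0.0197) and by 1.43 ± 0.18 with the cytokines alone (adjusted p = 0.000413), and fell by 0.71 ± 0.18 with PM10 in inflamed hIECs (adjusted p = 0.0411). Its interaction of −1.72 ± 0.26 was the largest in size of the 27 called (adjusted p = 0.0121). The call was lost in most of the fits that left out 1 library, where the interaction ranged from −2.05 to −1.39. The fall of NEAT1 with PM10 in inflamed hIECs was not called under 8 of 19 other settings, and leaving out 1 library took its adjusted p to 0.17 and that of the MIR4435-2HG rise to 0.143. MALAT1 begins 52099 bases after the end of NEAT1 and had an interaction of −1.34 ± 0.18 (adjusted p = 0.00858).

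Of the 27 lncRNAs with an interaction, 23 had a negative one. MIR503HG had −1.14 ± 0.16 (adjusted p = 0.00992), DNM3OS −0.82 ± 0.08 (adjusted p = 0.00205), BX321878.1 −1.26 ± 0.24 (adjusted p = 0.027), HAGLR −0.95 ± 0.12 (adjusted p = 0.00748), HOTAIRM1 −0.73 ± 0.11 (adjusted p = 0.0128) and HOXA-AS2 −0.64 ± 0.13 (adjusted p = 0.0319). The 4 positive ones were LINC00632 at 0.96 ± 0.15 (adjusted p = 0.0137), AC083967.1 at 0.64 ± 0.07 (adjusted p = 0.003), MIR4435-2HG at 0.59 ± 0.07 (adjusted p = 0.00455) and AC117402.1 at 0.53 ± 0.12 (adjusted p = 0.0462). AC083967.1 fell less with PM10 in inflamed than in normal hIECs, and LINC00632, which fell in normal hIECs, changed by 0.02 ± 0.10 in inflamed hIECs (adjusted p = 0.904). The count of 27 fell to between 9 and 16 without either replicate of normal hIECs with PM10, inflamed hIECs or inflamed hIECs with PM10, and 8 calls held whichever library was left out, among them DNM3OS, MALAT1, MIR503HG, HAGLR, AC083967.1 and MIR4435-2HG.

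**Figure D5:**
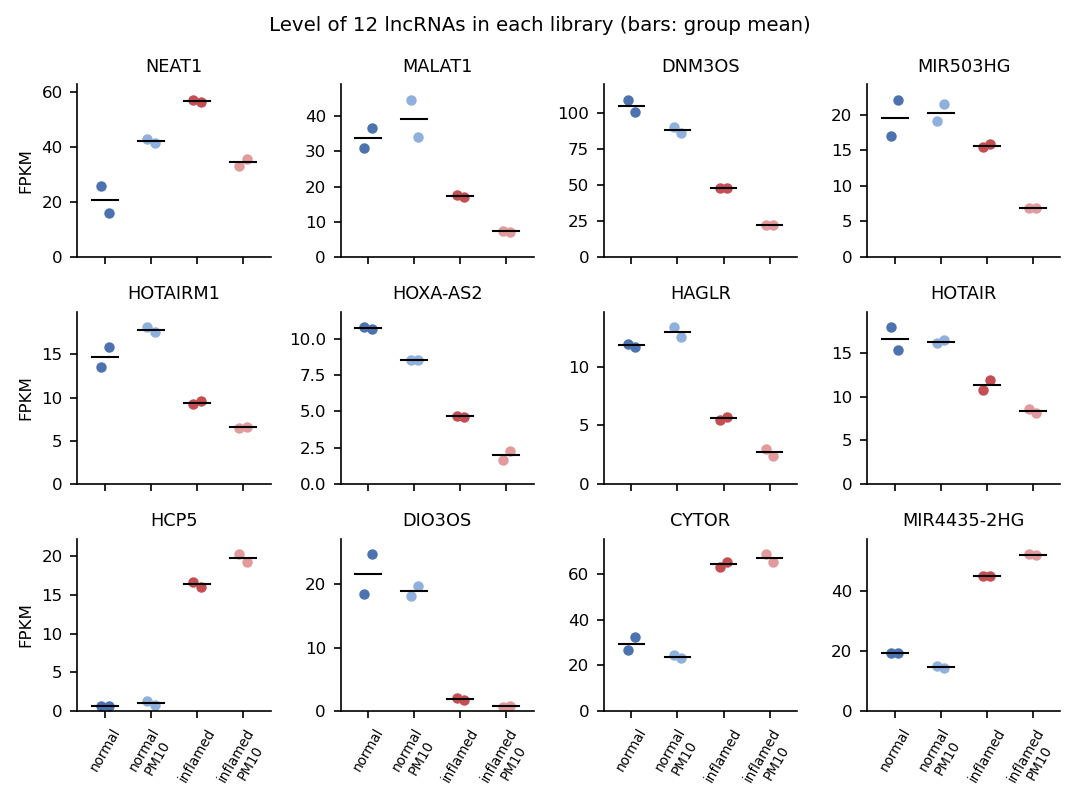
FPKM of 12 lncRNAs in each library by group, with a bar at the group mean and each axis starting at 0. NEAT1 is higher with PM10 in normal hIECs and lower with PM10 in inflamed hIECs, MIR503HG is low only in inflamed hIECs with PM10 (6.89 and 6.86 FPKM), and the listed HOX lncRNAs HOTAIRM1, HOXA-AS2, HAGLR and HOTAIR step down from normal to inflamed hIECs and again with PM10.

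Hosts of microRNAs did not share a direction with the cytokines without PM10, while more fell than rose with PM10 in inflamed hIECs. Of the 5 in the list, 2 rose and 1 fell with the cytokines without PM10, and 1 rose and 2 fell with PM10 in inflamed hIECs. MIR22HG had 9.58 and 8.01, 10.9 and 10.3, 16.5 and 16.8, and 12.9 and 14.1 FPKM and rose by 0.86 ± 0.09 with the cytokines (adjusted p = 0.000134). MIR100HG fell by 0.68 ± 0.07 with the cytokines (adjusted p = 0.000207). CARMN, a smooth muscle lncRNA, had 7.67 and 2.23, 5.58 and 5.18, 7.93 and 8.65, and 3.98 and 4.29 FPKM, and none of its changes was called. With PM10 in normal hIECs its log2 change of 0.27 became 0.98 without normal replicate 1 and −0.44 without normal replicate 2. Of the 14 lncRNAs that hold a microRNA gene by the annotation, 8 fell and 1 rose with PM10 in inflamed hIECs. The share called lower was 57.1%, beside 31.8% of the 151 lncRNAs and 9.02% of all genes.

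In a list of 7 lncRNAs studied as regulators in the nucleus, or in the cytoplasm as NORAD, NEAT1, NORAD and CYTOR rose and MALAT1 and FIRRE fell with the cytokines without PM10, while OIP5-AS1 at 0.06 (adjusted p = 0.534) was not called. TUG1, listed as a lncRNA in the files and as protein-coding in GENCODE 44, lay at 27.0 to 32.4 FPKM in all libraries and was not called in any comparison. Among the 4 linked to stress or p53, NEAT1, MIR22HG and PURPL rose with the cytokines without PM10, or 75% beside 25.9% of all genes. PURPL, a p53 target, had 6.27 and 4.09, 6.54 and 8.01, 8.87 and 8.25, and 9.92 and 9.26 FPKM and changed by 0.65 ± 0.16 (adjusted p = 0.0111), and TP53TG1 by 0.25 ± 0.12 (adjusted p = 0.125). In the cytokine comparison with PM10 only MIR22HG of these 4 was called higher, or 25% beside 25.8% of all genes. CARMN was the only 1 of the listed neighbours of mesoderm transcription factors at a mean of 5 FPKM. Of the 5 tested at any level 4 fell and none rose with the cytokines without PM10, or 80% lower beside 30.3% of all genes.

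Overlap with other genes was common. By GENCODE 44, 109 of the 151 lncRNAs shared exon bases with another gene, 40 shared none and 2 were not in that release. In 22 the shared part was at least 50% of the exon bases, and 8 lay wholly within exons of other genes, among them AC006064.4 under GAPDH, AC093484.3 under UBB, AC034193.1 under VHL and AC132217.1 in IGF2. Of the 22, 10 were called lower and none higher with the cytokines without PM10, or 45.5%. Of the 40 with no shared bases 25 were lower and 11 higher, or 90%. The 40 include the 4 genes of the ribosomal DNA, all called lower, which share windows with each other and are not independent. Of the 87 with a smaller shared part 36 were lower and 19 higher, or 63.2%, beside 56.2% of all genes. The spread within groups was wider where the overlap was large, with a median SD of the log2 value of 0.173 at 50% or more, 0.103 under 50% and 0.126 with none, beside 0.085 over all genes tested. AC006064.4, opposite to the glycolytic gene GAPDH, had 35.1 and 38.4, 18.0 and 25.3, 36.2 and 39.6, and 29.9 and 33.8 FPKM, at group means of 791 to 1236 FPKM for GAPDH. It changed by −0.75 ± 0.14 with PM10 in normal hIECs (adjusted p = 0.024), in the same direction as GAPDH at −0.25 (adjusted p = 0.0138). Across the 65 lncRNAs with a tested protein-coding partner, the cytokine changes of lncRNA and partner had a Pearson r of 0.61, with the same sign in 35. With PM10 the r was −0.04 in normal and 0.20 in inflamed hIECs, and of the 13 lncRNAs with at least 50% of their exon bases under the partner 4 had the partner's sign with the cytokines. The points share libraries and reads, and genes are not independent replicates.

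Of the 151 lncRNAs, 48 started within 1000 bases of, and pointed away from, a protein-coding gene. With the cytokines 5 of them rose and 25 fell without PM10 and 5 rose and 29 fell with it, or 62.5% and 70.8% called beside 56.2% and 65.4% of all genes. With PM10 in inflamed hIECs 1 rose and 17 fell, or 37.5% beside 15.2% of all genes. Of all 151 lncRNAs, 67.5%, 74.2% and 33.8% were called in these comparisons, in the order given. Of the 151 lncRNAs, 149 had transcripts in GENCODE 44, and 34 of these shared no 100-base window with a transcript of another gene, while 21 shared at least 50% of their windows.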

How the data were processed

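Poly(A) RNA of 8 libraries (2 per group) was read without strand as pairs of 100 bases. Per the study's methods and processing notes, the authors trimmed reads with Cutadapt 3.7 and Sickle 1.33 (quality 20, minimum length 50), aligned them to GRCh38 with HISAT2 2.2.1 and deposited FPKM per gene from StringTie 2.2.0. The annotation release is not given in the sources used here. The files hold no counts, so the depth is unknown; the lowest FPKM above 0 was 0.164 to 0.228 per library.

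Here log2(FPKM + 1) of the 14206 genes at 1 FPKM or more in at least 2 libraries was fitted in 1 model over all 4 groups with limma 3.58.1 (R 4.3.3, trended variance, 4 residual degrees of freedom), with Benjamini-Hochberg adjustment over all genes in each comparison. With 2 libraries against 2, an exact permutation test of 1 gene cannot go below 0.333. On simulated data, scored for the cytokines without PM10, the fit called 92 of 100 genes changed by 1 on the log2 scale. It called 49 of 100 changed by 0.5. Only these genes were changed there, while 56.2% of all genes were called in the data. The rates are therefore not the sensitivity of the comparisons above. The lncRNAs and gene lists were chosen with earlier results of these data known. Named were the 10 with the highest mean, those with the largest called changes of each comparison, the leading members of each list and the 3 just above the minimum; LINC02086, DANCR, FIRRE, OIP5-AS1, AC006064.4, AC034193.1, SNHG3, SNHG8, SNHG12 and SNHG19 were named after their values were seen. Overlaps are from GENCODE 44, matched by gene ID, and sequences from RefSeq. Alternatives changed the pseudocount, filter, scaling, trend, samples and lncRNA minimum, and left out each library.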

Additional observations from a re-analysis of the deposited data

Results flagged for a closer look

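The PM10 change differed between inflamed and normal hIECs for 27 lncRNAs by the interaction term of limma (adjusted p under 0.05, values on the log2 scale as the change in inflamed minus that in normal hIECs). Beyond those described above, the negative differences were AL513318.2 −0.65, SNHG14 −0.47, PSMA3-AS1 −0.62, LINC01116 −0.57, MIR22HG −0.53, AL391422.4 −0.63, MUC20-OT1 −0.93, MIAT −0.88, STAG3L5P-PVRIG2P-PILRB −0.54, LINC02593 −0.68, BAIAP2-DT −0.41, PTOV1-AS2 −0.56, SLX1A-SULT1A3 −0.52, AL139393.3 −0.83 and LINC01002 −0.78. Those given above were NEAT1 −1.72, MALAT1 −1.34, BX321878.1 −1.26, MIR503HG −1.14, HAGLR −0.95, DNM3OS −0.82, HOTAIRM1 −0.73, HOXA-AS2 −0.64, AC117402.1 0.53, MIR4435-2HG 0.59, AC083967.1 0.64 and LINC00632 0.96. Groups of 2 libraries are too small to test for a library far from the others.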

How the results depend on the processing

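The counts of called lncRNAs ranged, when 1 library was left out, from 7 to 34 for PM10 in normal hIECs (21 in all libraries), from 23 to 60 for PM10 in inflamed hIECs (51) and from 9 to 35 for the interaction (27), and from 87 to 102 and 98 to 119 for the cytokines without and with PM10 (102 and 112). Fitting the 2 groups alone gave 1 call for PM10 in normal hIECs. The cause of these differences was not tested. With a minimum mean of 2 FPKM the counts were 29 of 398 lncRNAs for PM10 in normal hIECs (7.29%, below the 9.23% of all genes), 254 for the cytokines, 101 for PM10 in inflamed hIECs, 291 for the cytokines with PM10 and 53 for the interaction, and with a minimum of 10 they were 16 of 64 (25%), 48, 28, 52 and 15. Among those sharing no exon bases, the 4 ribosomal DNA genes included, they were 11 for PM10 in normal hIECs and 36 for the cytokines. They were 15 for PM10 in inflamed hIECs, 32 for the cytokines with PM10 and 7 for the interaction. Without the 4 genes of the ribosomal DNA, an alternative chosen after seeing the data, they were 17, 98, 51, 108 and 27 in the order PM10 in normal, cytokines, PM10 in inflamed, cytokines with PM10 and interaction. CARMN changed sign for PM10 in normal hIECs without normal replicate 2, to −0.44, and was called without normal replicate 1, at 0.98. With the replicate number as a block the counts were 21, 105, 48, 114 and 27 in the same order. Same-numbered libraries showed no strong shared deviation (correlations from −0.0015 to 0.0793). With 2 libraries per group this cannot tell whether the samples were paired by culture. The depth of the libraries is unknown, and 2 libraries per group limit every estimate.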
